A study of Sparus aurata with 6 samples.

Results

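The 200 ESTs (expressed sequence tags, reads of cDNA clones) and contigs with the strongest hybridisation signal in the mid-anterior intestine of gilthead seabream (Sparus aurata) were described here, out of 15156 names on the microarray. They were chosen by their level alone. A name was taken when all of its spots were well above background on all 6 arrays, which held for 10028 names, and when its mean log2 level over the 6 arrays was among the 200 highest. The 200 names were 1.32% of all names and 1.99% of the names above background everywhere. A further 4 names had a mean at or above that of the lowest of the 200 and were left out because a spot was not well above background. Since the levels chose the names, the levels are given as a description with no test. The diet was not used in the choice, so the comparison between diets was tested.

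Juvenile fish were fed either a control diet or the same basal diet with 0.5% of a functional additive. The additive was a microencapsulated mixture of synthetic garlic, carvacrol and thymol essential oils (EOs). The fish weighed 155 g when sampled at day 65, which is not their weight at the start of feeding. Both groups had been through the same hydrogen peroxide and formaldehyde baths after transport and were kept in triplicate tanks per diet. At day 65, the RNA of 4 fish was combined into each pool, and 3 pools per diet were labelled with a single dye and hybridised to 1 array each. The labels do not say which tank a pool came from, and a pool averages its fish, so that p-values measure only the spread between pools.

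The intestine of a carnivorous marine fish digests and absorbs nutrients, is in contact with the microbiota and renews its epithelium continually. In such a tissue a small number of transcripts usually makes up much of the messenger RNA, and these commonly encode ribosomal proteins and translation factors, mitochondrial respiratory chain subunits, actins and other cytoskeletal proteins, digestive proteases, lipid-binding proteins and apolipoproteins of the enterocytes. This is background and not a reading of the arrays. The names on the array (Contig1492, cDN11P0002G16.F.ab1 and the like) identify clones and assemblies and carry no gene symbol, and 0 of the 15156 names matched the 32006 genes of the gilthead seabream RefSeq annotation. No gene was therefore named, no marker of the intestine could be looked up, and the members are given by their EST or contig names. A level is a signal and not a number of transcripts, because probes differ in how well they hybridise, and for the same reason the rank of a name is a rank of signal.

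Each array carried 43803 probe spots beside its controls. Between 77.5 and 80.2% of them were well above background in the control pools and EOs pool 1, and 89.3 and 88.1% in EOs pools 2 and 3. The intensity to which an array was scaled, its 75th percentile, lay between 1534 and 2113. No spot was saturated, the brightest spot of the 200 names on any array was at 403908 against a saturation value of at least 657646, and the number of arrays limits the precision. The 927 spots of the 200 names were read almost wholly from the low-gain scan (between 99.7 and 100% of them per array, against 2.01 to 2.95% of the other spots), which the extraction software multiplied by between 10.0 and 10.4 to bring both scans onto the same scale.

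The signal of the 200 names covered a narrow range. The mean log2 level relative to the 75th percentile ran from 6.88 at rank 1 to 4.53 at rank 200, a ratio of 5.09 on the linear scale, and the mean intensity of a name over the 6 arrays from 226960 to 44343. The first name was Seabream_2006-01-03-CL615Contig1, with intensities of 202966, 246927 and 192489 in control pools 1, 2 and 3 and of 229461, 279316 and 210600 in EOs pools 1, 2 and 3. Relative to the 75th percentile these were log2 levels of 6.84, 6.87 and 6.97 on the control diet and 6.85, 7.07 and 6.67 on the EOs diet, and the EOs pools held both its highest and its lowest value. The lowest, in EOs pool 3, rests on 1 of its 3 probes, the dimmest, because the spots of the other two carried an outlier flag there. That probe read 6.73, 6.76 and 6.83 on the control diet and 6.71, 6.92 and 6.67 on the EOs diet.

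Contig1492 followed with log2 levels of 6.87, 6.81 and 6.97 in the control pools, against 6.93, 6.80 and 6.82 in the EOs pools. Contig1321 had 6.96, 6.75 and 6.92 in the control pools, against 6.86, 6.89 and 6.64 in the EOs pools. The pools of both diets overlapped in these names, and the order of the first 3 was within their spread between pools. Contig112 had 6.92, 6.82 and 6.92 in the control pools, against 6.74, 6.73 and 6.51 in the EOs pools, and its pools did not overlap. Its brightest probe, with a mean of 7.31, had no value in EOs pool 3, and the log2 difference of -0.23 ± 0.13 SE (limma, adjusted p = 0.449) became -0.14 on the 2 probes measured in every pool. The names at ranks 5 to 10 were Contig2685, Contig1415, Mackenzie-051508-Contig379, Contig701, Seabream_2006-01-03-CL5055Contig1 and Contig1008, with mean levels falling from 6.72 to 6.55. None of the first 10 had a p under 0.05, and their differences between diets lay between -0.23 and 0.16 on the log2 scale. In 6 of the 10 a probe had no value in EOs pool 3, and on the probes measured in every pool the differences lay between -0.14 (Contig701) and 0.16 (Seabream_2006-01-03-CL5055Contig1).

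**Figure D1:**
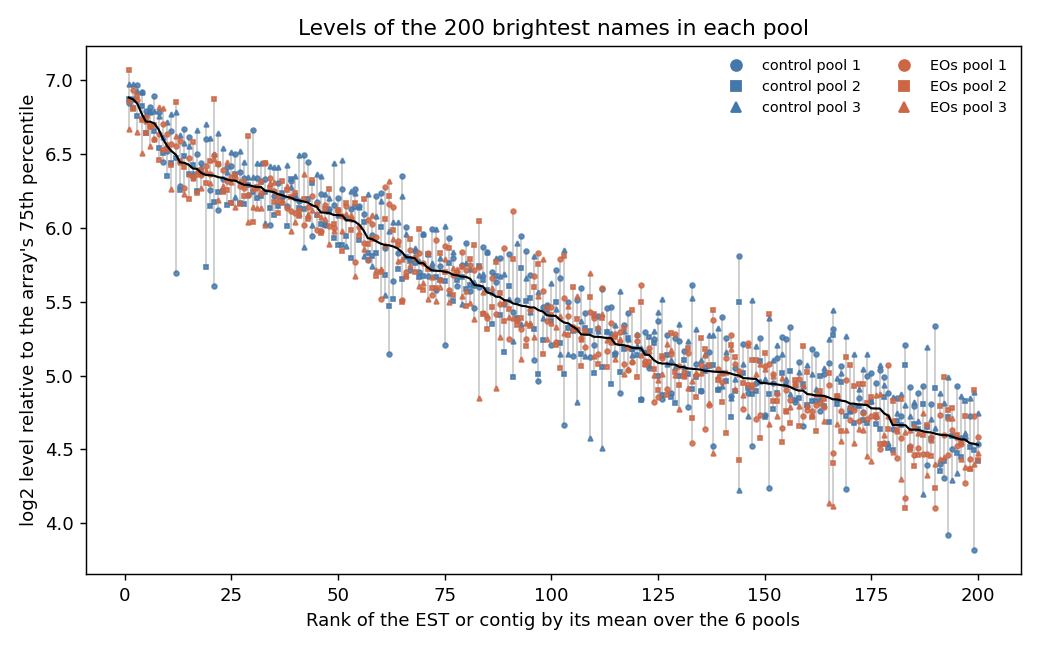
The log2 level of each of the 200 names, on the scale set by the 75th percentile of the array, is plotted against its rank, with a point per pool (blue for the control diet, orange for the EOs diet, a symbol per pool number), a grey line from the lowest to the highest pool and a black line through the means. The means fall from 6.88 to 4.53, and single names spread over up to 1.58 between pools.

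At the lower edge the levels passed the threshold without a gap. The last 3 names taken were cDN09P0006B20.F.ab1, cDN12P0005J21.F.ab1 and Contig2192, with means of 4.54, 4.54 and 4.53. The first 3 names not taken were cDN14P0003O15.F.ab1, Seabream_2006-01-03-CL3270Contig1 and Contig3721, with means of 4.53, 4.52 and 4.52. The last name inside and the first outside thus differed by far less than the pools of either. The ESTs cDN12P0005J21.F.ab1 (3.82, 4.50 and 4.89 in the control pools, against 4.72, 4.90 and 4.40 in the EOs pools) and cDN14P0003O15.F.ab1 (3.73, 4.45 and 4.94, then 4.74, 4.92 and 4.40) stood on either side of the threshold with nearly the same value in every pool. A shared sequence of these 2 ESTs could not be looked up here.

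Most of the 200 names were bright in every pool. Each array was also ranked alone, among the names above background on all 6 arrays. Its 200 brightest names shared between 186 and 192 with the 200 described here, and 165 names were among the 200 on every array. The control pools alone gave 191 of them and the EOs pools alone 192, and these 2 choices shared 184 names. Every pool entered the mean that chose the 200, so that overlaps with the 200 are in part built in. The 184 compares choices made on separate pools. Of the first 10 names, 6 were among the first 10 on every array, and the lowest rank any of the 10 took on an array was 18. The lowest rank of any of the 200 was 376, taken by cDN12P0005J21.F.ab1, and 2 names fell past rank 300 on some array. By the 184 shared names, the set was nearly the same on both diets.

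The 200 names carried 39.5, 39.0 and 40.4% of the intensity summed over all names in control pools 1, 2 and 3, and 39.6, 39.4 and 39.2% in EOs pools 1, 2 and 3. The means were 39.6% ± 0.722 on the control diet and 39.4% ± 0.192 on the EOs diet (SD, n = 3). The diets overlapped, and the difference of -0.238 percentage points did not separate them (exact permutation test, two-sided, p = 0.8, where 3 pools against 3 cannot give less than 0.1). The first 10 names carried 4.24% ± 0.0361 on the control diet and 4.21% ± 0.0629 on the EOs diet (n = 3, exact p = 0.6), and the first 50 carried 16.6% ± 0.488 and 16.6% ± 0.0105 (n = 3, exact p = 1). Of the names taken in order of mean level, 27 were needed for 10% of the summed signal, 85 for 25%, 326 for 50%, 1216 for 75% and 3188 for 90%.

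**Figure D2:**
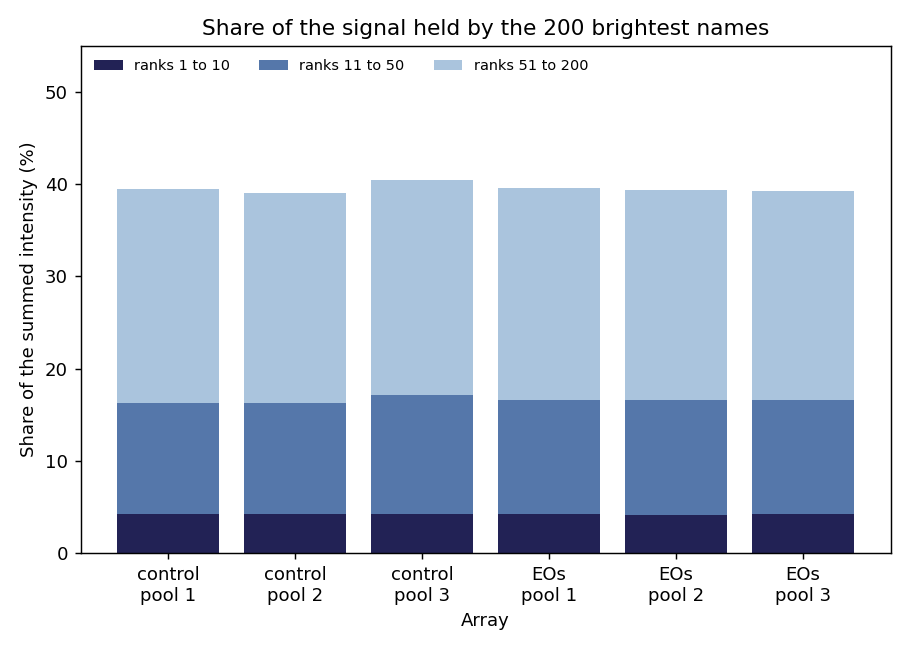
Stacked bars give the share of the intensity summed over all names, in percent, that ranks 1 to 10, 11 to 50 and 51 to 200 held on each of the 6 arrays. The full bars lie between 39.0 and 40.4%, and the control and EOs pools overlap.

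The share depended on how spots were counted. When the intensities of all spots were summed in place of 1 mean per name, the 200 names held between 46.4 and 47.4% on the other 5 arrays and 38.4% in EOs pool 3 (exact p = 0.2 between diets, n = 3). In that pool, 222 of the 927 spots of the 200 names (23.9%) carried an outlier flag and were left out, 219 of them because their pixels were not uniform, while 118 of 42876 other spots (0.275%) were flagged there. On the other 5 arrays between 1 and 7 spots of the 200 names were flagged. With the flagged spots kept, EOs pool 3 held 44.8% of the intensity summed over spots. With 1 mean per name and the flagged spots kept, it held 37.5%, below the other 5 arrays. The EOs mean was then 38.8% ± 1.13, against 39.6% ± 0.694 on the control diet (SD, n = 3). The flags touched 111 of the 200 names in EOs pool 3 and removed every spot of 76 probes there, in 61 names, whose value in that pool rests on fewer probes than in the others.

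The 200 names were made up differently from the rest of the array. Names beginning with Contig were 116 of the 200 (58%), against 22.9% of the names above background everywhere. A further 33 were Seabream_2006-01-03 contigs (16.5%, against 23.0%), 43 were single ESTs named cDN (21.5%, against 50.9%), 5 were SCT ESTs and 3 Mackenzie contigs. A contig is assembled from several clones. Of the 200 names, 150 (75%) had 3 probes, against 45.2% of the names above background everywhere, while 41 (20.5%, against 53.8%) had 1 probe. The number of probes was not compared between kinds of name. No test was made of these shares.

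Probes of the same name read different levels. Over the 159 names with 2 or more probes, the range between probes had a median of 0.365 on the log2 scale, with extremes of 0.0155 and 2.48. The median was 0.657 in the other names above background everywhere. Names were chosen by the mean of their probes, so that a dim probe could keep a name out. The lower median of the chosen names can thus be in part built into the choice. Whether probes of bright names read closer levels apart from this was not tested. Contig561 had the widest range, with probe means of 6.27, 6.24 and 3.79, so that 2 of its probes read like names near the top of the list and the other one like a name outside it. Contig2106, Contig1507, Seabream_2006-01-03-CL4953Contig1 and Contig1519 came next, with ranges of 2.16, 2.13, 2.03 and 1.93. Contig1418 had the closest probes, at 5.13, 5.15 and 5.13, and Contig1475, cDN09P0005I07.F.ab1, Contig1496 and Contig1428 followed with ranges of up to 0.0278. The mean level of a name, and with it its rank, thus depended on which probes the array carried for it.

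The pools of a diet differed little in most of the 200 names. The SD between pools, pooled over both diets, had a median of 0.144 on the log2 scale (from 0.0317 to 0.641), against 0.230 in the other names above background everywhere and 0.267 in all names tested. From the lowest to the highest of the 6 pools, 121 names spanned less than 0.5, 61 between 0.5 and 1, and 18 (9%) 1 or more, while 28.6% of the other names above background everywhere spanned 1 or more. The SD between replicate spots of a probe, which measures the array alone, had a median of 0.121 in the 132 of the 200 names that gave one. It was 0.119 in 6424 of the other names above background everywhere. A name's level is a mean over its probes, and more of the 200 had 3 probes (75%, against 45.2%). The part of this in their smaller SD between pools was not tested.

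A few members differed widely between pools of the same diet. The EST cDN02P0004H05.F.ab1 had the largest SD, with levels of 5.81, 5.50 and 4.22 in the control pools, against 5.03, 4.43 and 5.01 in the EOs pools, and its highest and lowest values were both on the control diet. Contig2278 had 4.24, 4.88 and 5.39 in the control pools, against 5.08, 5.41 and 4.67 in the EOs pools. The EST cDN05P0001I19.F.ab1 had 4.67, 5.01 and 5.85 in the control pools, against 5.53, 5.81 and 5.29 in the EOs pools. These 2 names and cDN12P0005J21.F.ab1 above were all lowest in control pool 1. Contig3162 was lowest in EOs pool 3 (4.53, 5.07 and 5.27 on the control diet and 5.37, 5.44 and 4.48 on the EOs diet). The EST cDN01P0004I08.F.ab1 was also low in EOs pool 3, at 4.85 against 5.60 to 6.05 in the other pools, and there its 2 brighter probes had been lost to flags, so that the value was that of its dimmest probe alone. That probe read between 4.84 and 5.06 in all 6 pools.

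By correlation, control pool 1 lay farthest from the other pools in the 200 names. The correlation of levels between arrays, across the 200 names, was lowest between control pool 1 and EOs pool 2 (r = 0.804) and highest between EOs pools 1 and 2 (r = 0.958). It lay between 0.846 and 0.933 within the control diet, between 0.920 and 0.958 within the EOs diet and between 0.804 and 0.927 across diets, so that pairs across diets overlapped with pairs within the control diet. By the size of the differences control pool 3 was as far off, since the median absolute log2 difference to the other 5 pools averaged 0.205 for control pool 3, 0.204 for control pool 1 and between 0.157 and 0.179 for the rest. These values are across names measured on the same arrays, and names are not replicates. The first principal component of the 200 names held 44.0% of their variance, with scores of 3.53, 1.00 and -0.30 for the control pools and -1.53, -2.24 and -0.45 for the EOs pools. The scores of the diets did not overlap, and EOs pool 3 and control pool 3 lay next to each other. On the first component of all names tested the diets did overlap. There control pool 2 scored -33.2, between EOs pool 2 at -57.4 and EOs pool 3 at -21.4.

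The comparison between diets asked whether the additive changed the strongest signals of the intestine. Of the 200 names, 14 (7%) had an unadjusted p under 0.05, the threshold of the study's methods, and these are called changed here. Over all 12708 names tested the share was 15.3% (1941 names). In this fit a smaller share of the 200 was called than of all names, and the size of this gap depended on the test, as given below. Lower levels on the EOs diet were called for 10 of the 200 (5%, against 4.29% of all names tested), and higher levels for 4 (2%, against 11.0%). After Benjamini-Hochberg adjustment over all names tested, limma called 0 of the 200, where the smallest adjusted p was 0.159, and 1 of all names tested (0.00787%). The levels of the 3 pools per diet did not overlap in 46 of the 200 names (23%, 35 lower and 11 higher on the EOs diet), against 23.5% of all names tested. The split by direction was counted neither over all names tested nor under other scalings. In RNA from whole tissue, fewer cells of a type and less RNA per cell cannot be told apart.

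How many names were called, and which way, depended on the test and the scaling. A variance trend in the moderated test lets bright names have their own smaller variance. With it 25 of the 200 (12.5%) were called, against 15.2% of all names. The methods' t-test, the unpaired test named by the study, also called 25 (12.5%), against 13.8% of all names. Array quality weights called 44 (22%), against 28.4% of all names. The 14 names called were all among the 25 of the variance trend and the 44 of the array weights, and 10 of them were among the 25 of the methods' t-test. After adjustment these 3 alternatives called 0, 0 and 1 of the 200, and 2, 0 and 101 of all names. Scaling by quantiles, by the array median and by the spike-in controls gave 10 of 11, 0 of 20 and 4 of 5 called names higher on the EOs diet, against 4 of 14 with the 75th percentile, so that the balance of rises and falls differed between scalings. These scalings called 5.5, 10 and 2.5% of the 200, against 11.8, 13.2 and 9.99% of all names. Of all names called, 40.1, 40 and 90.9% were higher on the EOs diet, against 71.9% with the 75th percentile. The balance thus moved over all names as well, and the array median and the spike-in controls shift every name of an array alike. Different names were called under each, of which 5, 10 and 3 were among the 14.

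Differences were small in most members. The median log2 difference, EOs minus control, was -0.07 over the 200 names, with quartiles of -0.20 and 0.06, and 0.15 over all names tested. A difference under 0.2 in either direction was found in 132 of the 200, and 9 (4.5%) differed by more than 0.5, against 28.4% of all names tested. The median standard error was 0.149 among the 200 and 0.213 among all names. Levels were lower on the EOs diet in 122 of the 200 names and higher in 78 (39%, against 65.2% of all names). Under other scalings 141 were higher after quantile normalization, 118 with the spike-in controls, 105 in the deposited values and 17 with the array median. Which direction held the majority thus depended on the scaling. The median of the 200 lay 0.22 below the median of all names, a gap that the array median and the spike-in scaling leave nearly as it is by construction, while the median of the 200 itself moved to -0.30 and 0.05. It lay 0.20 below in the deposited values, 0.11 below with normexp background correction and 0.13 above the median of all names after quantile normalization, where the 200 were at 0.10.

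The position of the 200 relative to other names changed with the level. Names at ranks 201 to 400 had a median difference of -0.10, those at 401 to 1000 of -0.09, those at 1001 to 2000 of -0.04 and those at 2001 to 5000 of 0.00. Names at ranks 5001 to 10028, the dimmer part of those above background everywhere, had a median of 0.21. The shares of spots well above background, given above, were also higher in EOs pools 2 and 3, and the part of this in the differences was not tested. Outside the 200, 95 names were read from the low-gain scan on all spots of all arrays, and their median difference was -0.16, against -0.07 for the 194 of the 200 that were.

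**Figure D3:**
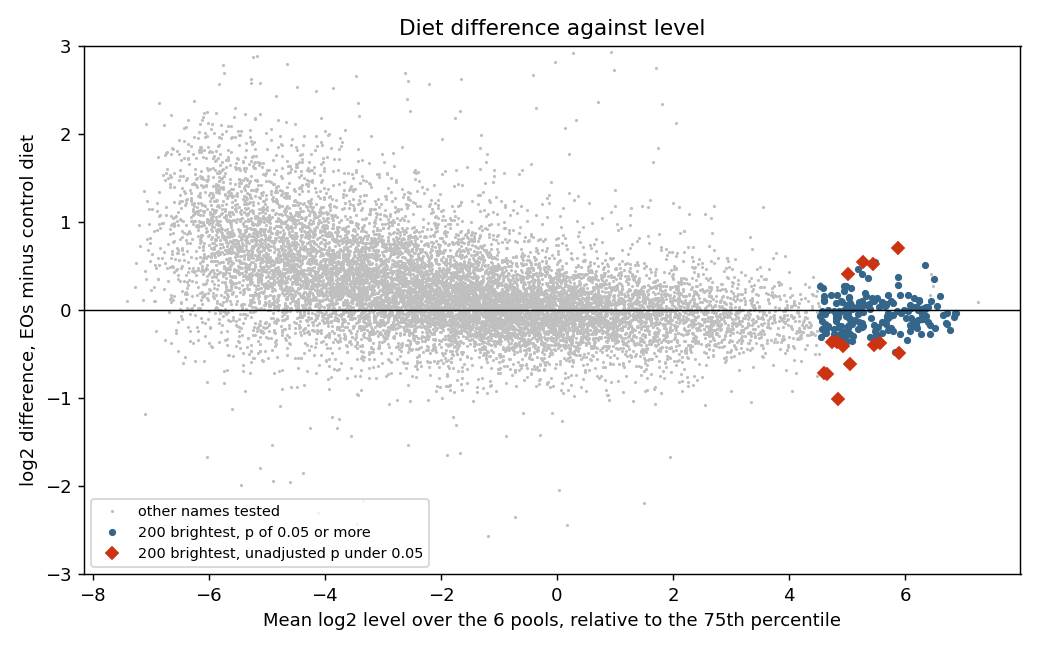
The log2 difference between diets (EOs minus control) of each name tested is plotted against its mean log2 level over the 6 pools, with the 200 names in blue, the 14 called ones as red diamonds and all others in grey, of which 19 lay beyond the plotted range of -3 to 3. The 200 names sit close to 0, between -1.01 and 0.70, while dim names spread more widely and lie mostly above 0.

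In the main fit none of the first 50 names was called, against 7% of the 200 and 15.3% of all names tested. The best rank of a called name was 60, and the median rank was 137.5. Ranks of the names called by the other tests were not compared, and 14 unadjusted calls cannot place the changes by rank. Ranks 51 to 100 held 5 of the 14, ranks 101 to 150 held 3, and ranks 151 to 200 held 6, all of them lower on the EOs diet. Of the 14, 12 were contigs. Among the 200, Contig names were 58%, Seabream_2006-01-03 contigs 16.5% and Mackenzie contigs 1.5%, so that contigs made up most of both. The pools of the diets did not overlap in 12 of the 14, the exceptions being Contig772 and SCT789_C11_T3_JP2_4_C11_091.ab1. Since the 14 were called on the same pools, this is in part built into their choice.

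Seabream_2006-01-03-CL98Contig1 (rank 166) showed the largest difference among the 200. Its intensity was 70125, 81805 and 66865 in control pools 1, 2 and 3 and 44183, 44246 and 35981 in EOs pools 1, 2 and 3, which are log2 levels of 5.31, 5.27 and 5.45 against 4.48, 4.41 and 4.12. Every control pool was above every EOs pool, and the gap between the diets was wider than the range within either. The level was 2.01-fold lower on the EOs diet (log2 difference -1.01 ± 0.15 SE, n = 3 pools per diet, limma, adjusted p = 0.159). Its 3 probes differed by -0.91, -1.08 and -1.04.

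Seabream_2006-01-03-CL2219Contig1 (rank 183) had levels of 5.21, 5.07 and 4.80 in the control pools, against 4.17, 4.11 and 4.62 in the EOs pools. It was 1.66-fold lower on the EOs diet (log2 difference -0.73 ± 0.20 SE, limma, adjusted p = 0.253), and its 3 probes all differed in that direction, by between -0.87 and -0.62. The lowest control pool and the highest EOs pool, both numbered 3, lay 0.18 apart. Contig3722 (rank 190, 1 probe) had 5.33, 4.92 and 4.65 in the control pools, against 4.11, 4.24 and 4.40 in the EOs pools, a log2 difference of -0.72 ± 0.21 SE (limma, adjusted p = 0.261). Contig772 (rank 133, 1 probe) had 5.61, 4.91 and 5.53 against 4.55, 4.71 and 4.97, and its pools overlapped, since control pool 2 was below EOs pool 3 (log2 difference -0.61 ± 0.24 SE, limma, adjusted p = 0.315).

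Seabream_2006-01-03-CL2239Contig1 (rank 60) was the brightest name called. It had levels of 6.23, 6.0 and 6.18 in the control pools, against 5.52, 5.70 and 5.72 in the EOs pools, and was 1.41-fold lower on the EOs diet (log2 difference -0.49 ± 0.14 SE, limma, adjusted p = 0.254). Its pools did not overlap, and its 3 probes differed by between -0.55 and -0.41. The other 5 names called lower were Contig2901, Contig1527, Contig3567, Contig1556 and cDN11P0002G16.F.ab1, all with pools that did not overlap and with log2 differences between -0.41 and -0.37. Of these, Contig1556 had the tightest pools, at 4.99, 4.86 and 4.94 on the control diet and 4.55, 4.54 and 4.60 on the EOs diet. Contig2901 was the closest to the threshold (limma, unadjusted p = 0.04996, adjusted p = 0.327).

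Contig926 (rank 62, 1 probe) showed the largest rise. Its log2 levels were 5.14, 5.47 and 5.98 in the control pools, against 6.16, 6.22 and 6.32 in the EOs pools, so that the EOs pools were close together and the control pools spread widely below them. The level was 1.63-fold higher on the EOs diet (log2 difference 0.70 ± 0.23 SE, limma, adjusted p = 0.279). Contig1750 (rank 142) was higher by less and with tighter pools, at 4.86, 4.72 and 4.85 on the control diet and 5.27, 5.20 and 5.18 on the EOs diet. It was 1.33-fold higher (log2 difference 0.41 ± 0.12 SE, limma, adjusted p = 0.263), and its 3 probes differed by 0.33, 0.55 and 0.35.

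The remaining names called higher rested on fewer or overlapping values. Contig2035 (rank 109) had 5.12, 5.30 and 4.58 in the control pools, against 5.43, 5.53 and 5.69 in the EOs pools (log2 difference 0.55 ± 0.22 SE, limma, adjusted p = 0.323). In EOs pool 3, 2 of its 3 probes had been lost to flags, and the probe measured in every pool differed by 0.47. The EST SCT789_C11_T3_JP2_4_C11_091.ab1 (rank 97) had 4.96, 5.01 and 5.56 in the control pools, against 5.83, 5.75 and 5.54 in the EOs pools, and control pool 3 was above EOs pool 3 (log2 difference 0.53 ± 0.21 SE, limma, adjusted p = 0.318).

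**Figure D4:**
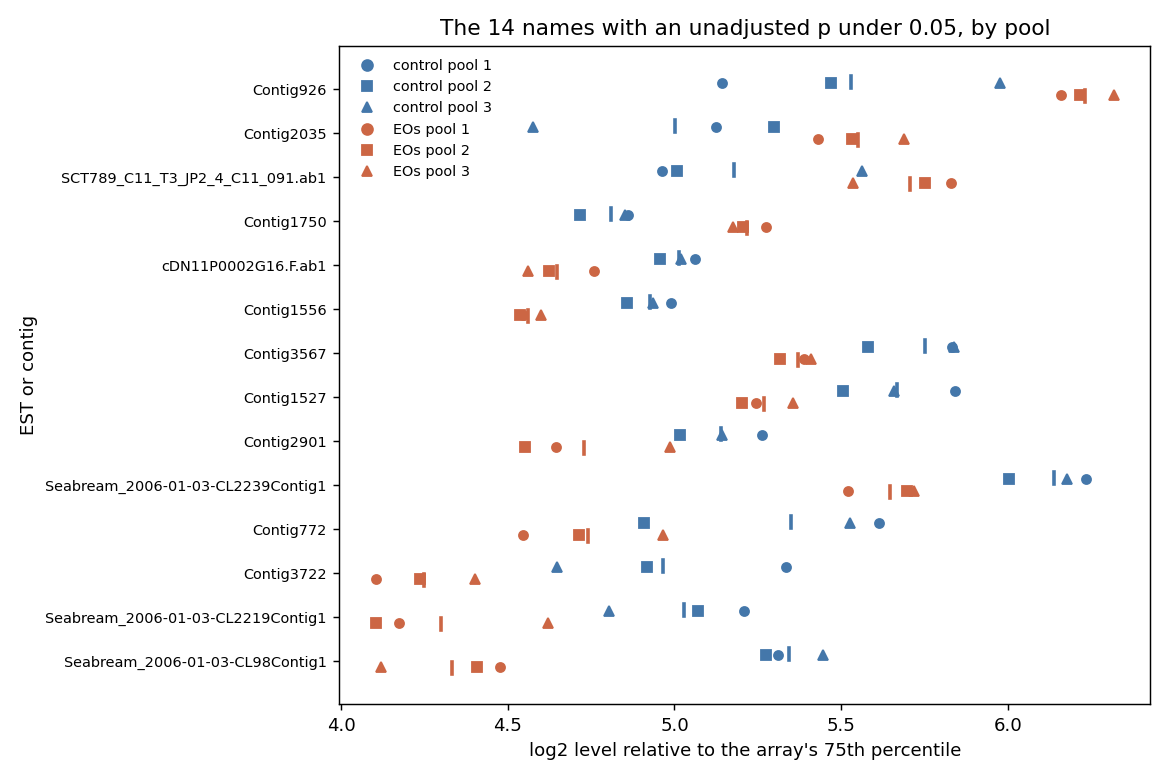
The log2 level in each pool, relative to the 75th percentile of the array, is shown for the 14 names called at an unadjusted p under 0.05, with the control pools in blue above the EOs pools in orange and a bar at the mean of each diet. The 10 lower names lie in the lower part of the plot and the 4 higher names at the top, and the colours overlap for Contig772 and SCT789_C11_T3_JP2_4_C11_091.ab1 only.

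Where a called name had more than 1 probe, the probes gave the same direction. This held for all 9 called names with 2 or more probes, and for 104 of the 159 such names among the 200, a difference in part built into the choice of names by the mean of their probes. The other 5 called names had 1 probe each, so that their difference has no second probe behind it. Of the 14 called names, 1 (Contig2035) had a probe without a value on every array, and with probes measured on all 6 arrays alone the same 14 names were called.

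**Figure D5:**
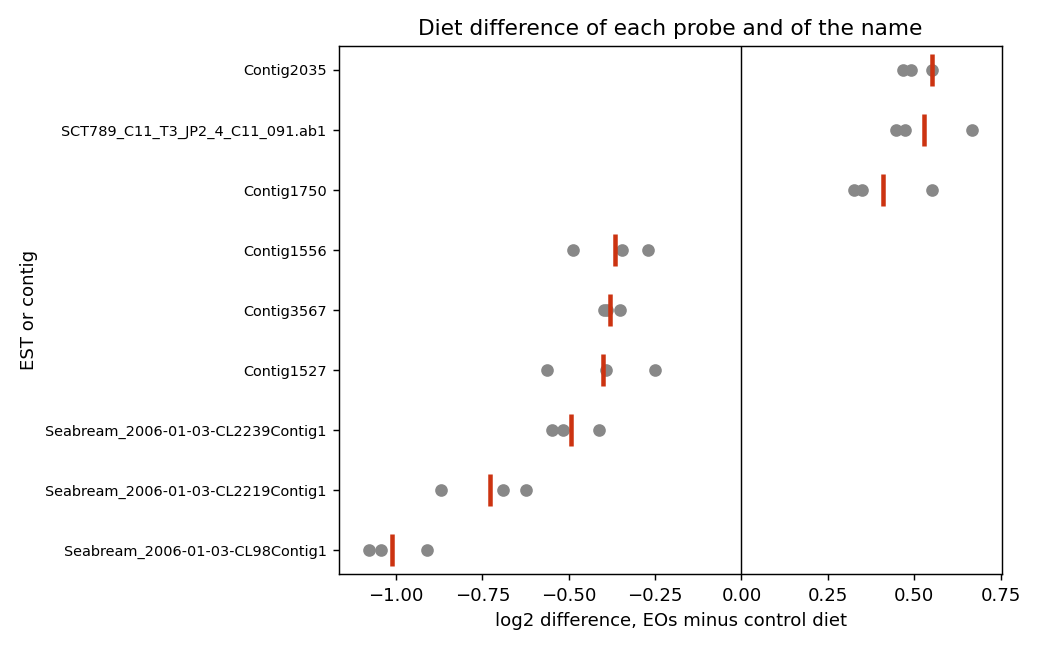
For the 9 called names with 2 or more probes, the log2 difference between diets (EOs minus control) is shown for each probe in grey and for the name in red. The probes of a name lie on the same side of 0 in all 9, from -1.08 for a probe of Seabream_2006-01-03-CL98Contig1 to 0.67 for a probe of SCT789_C11_T3_JP2_4_C11_091.ab1.

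The calls depended on single pools. Without control pool 1, 6 of the 200 names were called (3%, against 9.44% of all names). Without EOs pool 1, 4 were called (2%, against 11.1%), and without EOs pool 2, 6 (3%, against 8.95%). Leaving out control pool 2, control pool 3 or EOs pool 3 gave 12, 18 and 10 (6, 9 and 5% of the 200), against 24.1, 15.1 and 9.75% of all names. The share of all names called fell in 5 of these 6 fits and rose without control pool 2. Among the 200 the count rose without control pool 3 only. All 14 named differences kept their direction in each of 21 alternatives of scaling, test, filter and pools. The methods' t-test, the variance trend, the pool number as a block and other filters leave these differences unchanged. Their direction could not turn under these, and every alternative reuses the same arrays. Of the 21 alternatives, 20 give a p for a name. An unadjusted p under 0.05 was kept in all 20 by Seabream_2006-01-03-CL98Contig1, in 18 each by Seabream_2006-01-03-CL2219Contig1 and Seabream_2006-01-03-CL2239Contig1, and in 17 by Contig3722. It was kept in the fewest by Contig2901 (7), Contig2035 (8) and SCT789_C11_T3_JP2_4_C11_091.ab1 (9).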

How the data were processed

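For every array the authors deposited its scanner file, made with Agilent Feature Extraction 10.7.3.1 per the file headers, in which a spot's intensity was background-subtracted and detrended by the software but not normalized between arrays. A deposited table of log2 values holds the log2 of the background-subtracted signal. Controls and spots with an outlier flag were dropped, the 75th percentile of the array was subtracted from log2 of the processed intensity, spots were averaged per probe and probes per name. A name was tested when 0.5 or more of its spots were well above background on 3 or more arrays, which 12708 names were. The test was limma's moderated test (version 3.58.1, lmFit and eBayes, R 4.3.3), two-sided, and p-values were adjusted by Benjamini and Hochberg's method over all of these names. The procedure was tested on simulated data. Other steps used Python 3.11.15, numpy 2.4.6, pandas 2.3.3, scipy 1.17.1 and matplotlib 3.10.9.

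The members, the lists and the tests were chosen with earlier results of these data known. The names given with values are the first 10, the called names with the largest rises and falls (up to 10 each), 3 on either side of the threshold, the 5 with the largest SD between pools, and the 5 each whose probes differed most and least. Lists of intestinal genes had been drawn up and could not be used, since no name was tied to a gene. Probe sequences were not used here. The alternatives were other scalings, the deposited log2 values, normexp with an offset of 50, flagged spots kept, other filters, single probes or the median or highest probe, the methods' t-test, a variance trend, array weights, the pool number as a block, 100 or 400 names and each pool left out. Probes measured on all arrays, the spike-in scaling of the ranks and the signal share with flagged spots kept were tried only once the data had been seen. Per the file headers the 6 arrays lay on 6 slides, so that a slide effect could not be fitted.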

Additional observations from a re-analysis of the deposited data

How the results depend on the processing

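The 3 pools per diet limit every count. The number of the 200 names called was 14 (of all names, 15.3%) and became 44 with array quality weights (28.4%), 25 with a variance trend (15.2%) and 25 with the methods' t-test (13.8%), 5 with the spike-in scaling (9.99%), 9 with single probes, 5 of 100 names and 35 of 400 names, and between 4 (without EOs pool 1) and 18 (without control pool 3) when a pool was left out (from 8.95 to 24.1% of all names). After adjustment the array weights called 1 name and all other alternatives 0. The share of called names higher on the EOs diet was 28.6%. Its exact 95% interval of 8.39 to 58.1% counts names as independent, which they are not, and leaves out the spread between pools. The share turned to 90.9% after quantile normalization and 80% with the spike-in scaling. It was 0% with the array median and ranged from 0 to 50% without single pools. The median log2 difference was 0.10 after quantile normalization, 0.0481 with the spike-in scaling, 0.0132 in the deposited values and -0.30 with the array median, and from -0.114 to -0.035 without single pools. The difference in signal share, -0.238 percentage points, was 0.0916 in the deposited values, -0.79 with flagged spots kept, -1.07 summed over spots with flagged spots kept, -3.18 summed over spots without them, and between -0.556 and 0.154 without single pools, reversing without control pool 3 (exact p = 0.6). Beyond the construction of the scalings and the fewer pools, the cause was not tested.

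With the pool number as a block, 10 of the 200 names (5%) were called, 4 of them higher and 8 of them among the 14. Of all names, 2420 were called (19.0%, of which 81.5% were higher). After adjustment 0 of either were called. Pool numbers were not treated as pairs, since the labels do not say that same-numbered pools belong together. The deviations of same-numbered pools correlated at 0.08, 0.25 and -0.32 across the 200 names. Across all names tested they correlated at 0.16, 0.53 and 0.06. Differently numbered pools correlated at between -0.49 and 0.40 across the 200 names, and between -0.40 and 0.31 across all names tested. Names are not replicates, so these values cannot decide whether pools were paired. The list itself shared 178 names when the highest probe stood for a name, and between 191 and 200 under the other alternatives.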
